A study of Homo sapiens with 6 samples.

Results

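The 8 genes ASNS, GPT2, GOT1, GOT2, BCAT1, BCAT2, PYCR1 and ALDH18A1 encode enzymes that build asparagine and proline or that pass amino groups between glutamate and other amino acids. They were chosen by gene symbol, with earlier results of these data known, and all 8 were found among the 33496 genes listed for each library. RNA-seq was done on 6 libraries of ARPE-19, an established human cell line that grew out of retinal pigment epithelium (RPE). The cells of all 6 libraries, wild type by their labels, received 5 μM erastin for 24 h. Erastin blocks cystine uptake and drives ferroptosis, an iron-dependent cell death with lipid peroxidation. For 3 libraries erastin was given alone (Era), and for the other 3 vitamin K1 (VK1, 10 μM) was added 1 h earlier (Era+VK). Every difference below is therefore that of VK1 on top of erastin. Untreated cells were not analysed here, and what erastin itself did is therefore not shown by any value. The study dissolved VK1 in ethyl alcohol, and whether the Era cells received the same solvent is not given in the sources used here.

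Asparagine synthetase (ASNS) makes asparagine from aspartate with the amide group of glutamine. Proline is made from glutamate, first by the enzyme that ALDH18A1 encodes, which yields a reduced intermediate, and last by pyrroline-5-carboxylate reductases such as PYCR1. Transaminases move an amino group between glutamate and a keto acid: GPT2 makes alanine in mitochondria, GOT1 (cytosol) and GOT2 (mitochondria) make aspartate, and BCAT1 (cytosol) and BCAT2 (mitochondria) handle the branched-chain amino acids. ATF4, a transcription factor that cells make more of when amino acids run short, is known to drive ASNS, PYCR1, ALDH18A1 and GPT2. The transporter that erastin blocks exports glutamate in exchange for cystine, and every enzyme named here except PYCR1 uses or releases glutamate.

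ATF4 binds, with a C/EBP partner, to DNA whose core reads TGATGNAA. RefSeq promoter windows on GRCh38.p14, each running from 250 bases before to 50 after an annotated start, were at hand for 5 of the 8 genes, 10 windows in all; GPT2, BCAT2 and PYCR1 had none. The core, searched on both strands, was found in 3 of the 10, once each for ASNS, BCAT1 and GOT1, and in 3.62% of all 35116 windows. The stretches that hold it are shown because ASNS was called lower, BCAT1 narrowly missed the threshold and no difference was detected for GOT1. Each is 30 bases, 5′ to 3′ along the gene, with the core in capitals (for GOT1 it reads in the opposite orientation).
ASNS, chr7:97872458-97872487, minus strand: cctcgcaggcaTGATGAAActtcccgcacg
BCAT1, chr12:24949131-24949160, minus strand: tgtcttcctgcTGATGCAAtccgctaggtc
GOT1, chr10:99430804-99430833, minus strand: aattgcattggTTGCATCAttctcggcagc
From the start site of its window, the first base of the core lies at -68 in ASNS, -48 in BCAT1 and -198 in GOT1. All 3 stretches lie before that start but inside the 5′ untranslated part of an exon of a longer transcript in GENCODE 29. For BCAT1, another RefSeq start, at 24949340, lies upstream of the stretch. The windows of GOT2 and ALDH18A1 and the other windows of ASNS and BCAT1 do not hold these letters. A match is a description of the sequence and was not tested for binding.

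The values are FPKM, that is mapped fragments scaled by transcript length and by library size, so levels of different genes can be set side by side. Between 11924 and 12027 genes per library reached 1 FPKM. Sequencing depth is unknown, since no whole-read steps were found among low values. The libraries did not all look alike in other respects. Globin transcripts summed to 233.2 FPKM in Era+VK replicate 2 and 226.6 FPKM in replicate 3, against 0.19 FPKM or less in the other 4 libraries. With the other erythroid markers, the 12 genes listed summed to 0.08 to 0.21 FPKM in Era, and to 0.14, 239.5 and 232.1 FPKM in Era+VK, with HBB at 0.04 FPKM or less throughout. Results are therefore also given without Era+VK replicates 2 and 3, in which case VK1 is represented by 1 library and its spread is taken from Era. The RPE regulators MITF (15.5 to 18.6 FPKM) and OTX2 (27.5 to 31.4 FPKM) and the keratin KRT8 (170.8 to 208.8 FPKM) were present in every library. Markers of mature RPE were mixed. RPE65 stayed at 0.02 FPKM or less, TYR at 0.17 FPKM or less, RLBP1 at 0.29 FPKM or less and TYRP1 at 0.84 FPKM or less, while PMEL was at 1.07 to 1.42 FPKM. BEST1 was at 2.65, 0.65 and 56.98 FPKM in Era and at 36.45, 0.60 and 4.80 FPKM in Era+VK, a wide spread within both groups.

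RNA of ASNS, GPT2 and PYCR1 was lower after VK1 pretreatment, BCAT1 narrowly missed the threshold, and for GOT1, GOT2, BCAT2 and ALDH18A1 no difference was detected. The test took in the 11981 genes whose mean reached 1 FPKM, among them all 8 enzymes, and limma on log2(FPKM + 1) called 3 of the 8 lower in Era+VK (adjusted p under 0.05 after Benjamini-Hochberg adjustment), against 0.484% of all genes tested. None of the 8 was called higher (0.134% of all genes), and at an unadjusted p under 0.05 there were 4 lower and 0 higher (15.8% of all genes in either direction). With Era replicate 1, 2 or 3 left out, limma called 0 of the 8 (4 at an unadjusted p under 0.05 each time). Over all genes those fits called 3, 2 and 5, against 74 with all 6 libraries. At an unadjusted p under 0.05 they had 1541, 1360 and 1414 genes, against 1890. With no filter on low values, limma called 0 of the 8 (5 at an unadjusted p under 0.05) and 1 gene in all. The Era and Era+VK libraries did not overlap for 5 of the 8 (22.1% of all genes), of which 4 were lower (7.04%) and 1 was higher (15.1%). The median log2 fold change of the 8 was -0.17, and that of all genes tested was 0.03. The 8 were chosen with earlier results of these data known, so the values for all genes are set beside them as a description. In a bulk sample, less RNA per cell cannot be told apart from fewer cells that make it. Nothing in the labels says whether replicates were separate cultures, so p-values measure the spread between these libraries.

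**Figure D1:**
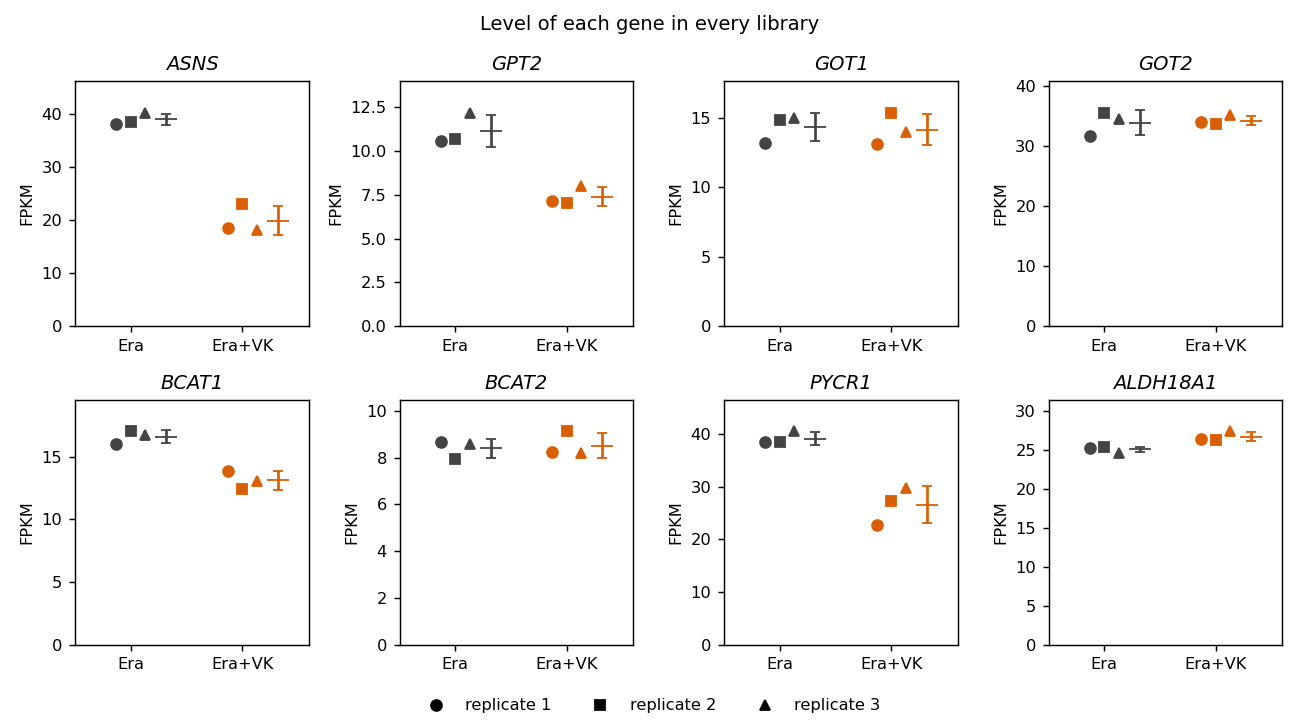
FPKM (y axis, from 0) of each of the 8 enzymes in the 3 Era and 3 Era+VK libraries; symbols mark the replicate, and the bars beside them the mean and SD of the 3. ASNS, GPT2, BCAT1 and PYCR1 separate the groups downwards, ALDH18A1 separates them upwards by a small step, and GOT1, GOT2 and BCAT2 overlap.

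ASNS (ENSG00000070669, chromosome 7 of GRCh38, 97852118 to 97872542) had the largest difference of the 8. It was at 38.26, 38.63 and 40.25 FPKM in Era and at 18.50, 23.04 and 18.09 FPKM in Era+VK. Every Era+VK library was well under every Era library, and replicates 1 and 3 lay below replicate 2. Erastin alone gave 39.0 ± 1.06 FPKM and erastin with VK1 19.9 ± 2.75 FPKM (mean ± SD of 3 libraries), or 50.9% of the Era level. The log2 fold change was -0.95 (95% interval -1.15 to -0.75, limma adjusted p = 0.0109), the 9th lowest of all genes tested. Without Era+VK replicates 2 and 3 it was -1.04 (adjusted p = 0.00264 in limma). Without Era replicate 1, 2 or 3 it kept its size (-0.96, -0.95 and -0.93), but the adjusted p in limma was 0.0619, 0.0702 and 0.0673. A processed transcript on the same strand (ENSG00000284707) spans the whole ASNS gene, and reads of the exons they share may have been split between them. It was listed at 4.10, 3.13 and 4.65 FPKM in Era and at 2.23, 2.82 and 7.70 FPKM in Era+VK, and these ranges overlap.

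On the proline route, PYCR1 of the last step was called and ALDH18A1 of the first was not. PYCR1 (ENSG00000183010, chromosome 17, 81932384 to 81942412) was at 38.45, 38.49 and 40.51 FPKM in Era and at 22.77, 27.25 and 29.67 FPKM in Era+VK. The Era libraries lay close together and the Era+VK libraries, all lower, were more spread. The means were 39.2 ± 1.18 and 26.6 ± 3.5 FPKM (SD over 3 libraries), which gave a log2 fold change of -0.55 (95% interval -0.75 to -0.35, adjusted p = 0.0479 in limma). This call is close to the threshold. It was lost without any 1 Era library (adjusted p = 0.148, 0.195 and 0.178 in limma), without Era+VK replicate 2 (0.0667) and with no filter on low values (0.191), and it held without Era+VK replicates 2 and 3 (log2 fold change -0.76, adjusted p = 0.0101 in limma).

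ALDH18A1 (ENSG00000059573, chromosome 10, 95605929 to 95656706), which encodes the enzyme of the first step, was at 25.17, 25.27 and 24.60 FPKM in Era and at 26.32, 26.28 and 27.32 FPKM in Era+VK. Every Era+VK library was slightly above every Era library. The log2 fold change was 0.09 (95% interval -0.005 to 0.18, adjusted p = 0.340 in limma), so a difference was not shown, and the lower bound of the interval lies far above the fold change of PYCR1. Within a library, PYCR1 was 1.53, 1.52 and 1.65 times as high as ALDH18A1 in Era and 0.865, 1.04 and 1.09 times as high in Era+VK. This ratio, worked out after both genes had been seen and therefore not tested, fell from a mean of 1.57 to one of 0.996, and its groups do not overlap.

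Of the transaminase genes among the 8, GPT2 was the one called. GPT2 (ENSG00000166123, chromosome 16, 46884378 to 46931297), mitochondrial alanine transaminase, was at 10.59, 10.67 and 12.18 FPKM in Era and at 7.15, 7.02 and 8.02 FPKM in Era+VK. The groups stand apart, with the third replicate the highest in each. GPT2 fell from 11.1 ± 0.896 to 7.40 ± 0.544 FPKM (mean ± SD of 3 libraries), with a log2 fold change of -0.53 (95% interval -0.70 to -0.37, adjusted p = 0.0231 in limma). With any 1 library left out it stayed between -0.58 and -0.47, but of these 6 fits only that without Era+VK replicate 3 kept it past the threshold (adjusted p = 0.0408 in limma). The other 5 gave 0.0576 to 0.112, and without Era+VK replicates 2 and 3 it was -0.57 (adjusted p = 0.0941 in limma).

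BCAT1 and BCAT2 catalyse the same reaction in different compartments. BCAT1 (ENSG00000060982, chromosome 12, 24810022 to 24949459), the cytosolic form, was at 16.00, 17.01 and 16.75 FPKM in Era and at 13.86, 12.38 and 13.05 FPKM in Era+VK. The groups do not overlap, and the log2 fold change was -0.32 (95% interval -0.44 to -0.20), with an adjusted p of 0.0519 in limma that misses the threshold. It passed in limma when 1 FPKM was required in every library (adjusted p = 0.0375), after quantile normalization (0.0450) and without Era+VK replicate 1 (0.0482). That was the only 1 of the 6 fits with 1 library left out that called BCAT1, and the adjusted p in limma reached 0.212 in the others. BCAT1 also missed with no filter on low values (0.155) and after rescaling without mitochondrially encoded genes (0.0755). Without Era+VK replicates 2 and 3 its log2 fold change was -0.24. BCAT2 (ENSG00000105552, chromosome 19, 48795062 to 48811029), the mitochondrial form, was at 8.66, 7.93 and 8.60 FPKM in Era and at 8.23, 9.12 and 8.19 FPKM in Era+VK. Its groups overlap, and the log2 fold change was 0.02 (95% interval -0.12 to 0.15, adjusted p = 0.917 in limma).

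The aspartate transaminases, both parts of the malate-aspartate shuttle that carries reducing power into mitochondria, were not called. GOT1 (ENSG00000120053, chromosome 10, 99396870 to 99431569) was at 13.19, 14.84 and 14.97 FPKM in Era and at 13.12, 15.35 and 13.95 FPKM in Era+VK. GOT2 (ENSG00000125166, chromosome 16, 58707131 to 58734357) was at 31.64, 35.53 and 34.60 FPKM in Era and at 34.05, 33.63 and 35.12 FPKM in Era+VK. For both, the libraries of the groups lie among each other. The log2 fold change was -0.02 for GOT1 (95% interval -0.18 to 0.15) and 0.02 for GOT2 (95% interval -0.11 to 0.14), with adjusted p of 0.926 and 0.917 in limma.

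By level, the order of the 8 genes changed between the groups. In Era, PYCR1 and ASNS stood highest, with overlapping ranges, followed by GOT2, ALDH18A1, BCAT1, GOT1, GPT2 and BCAT2, and none of these other neighbours overlapped in FPKM. In Era+VK, GOT2 stood highest, followed by ALDH18A1, PYCR1 and ASNS, then GOT1, BCAT1, BCAT2 and GPT2. There the ranges of ALDH18A1 and PYCR1, of PYCR1 and ASNS, and of GOT1 and BCAT1 overlapped. GPT2 and BCAT2 thus changed places at the lower end without overlap in either group.

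To see whether members moved apart from a partner enzyme in the same libraries, ratios of FPKM were taken, since a ratio within a library does not move with its scaling. BCAT1 was 1.85, 2.15 and 1.95 times as high as BCAT2 in Era and 1.68, 1.36 and 1.59 times as high in Era+VK. ASNS was 14.3, 16.8 and 16.1 times as high as ASRGL1, which encodes an enzyme that breaks asparagine down, in Era and 6.73, 8.53 and 6.58 times as high in Era+VK. For both ratios the groups do not overlap, with log2 differences of -0.36 and -1.12 on plain FPKM (-0.34 and -1.05 on FPKM + 1). Each had an exact permutation p of 0.1 (two-sided, 0.167 adjusted over the 5 ratios tested), the smallest that 3 libraries against 3 can give, so no ratio could pass the threshold.

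Other ratios did not separate the groups or were not tested. GOT1 stood at 0.417, 0.418 and 0.433 of GOT2 in Era and at 0.385, 0.456 and 0.397 in Era+VK (exact permutation p = 0.8, two-sided). ALDH18A1 was on average 3.58 times as high as ALDH4A1, which encodes an enzyme of proline breakdown, in Era and 3.61 times in Era+VK (exact permutation p = 0.8, two-sided). GPT, the cytosolic partner of GPT2, was at 0.36 to 0.66 FPKM in all 6 libraries, under 1 FPKM, and its ratio was left untested. GPT2 was 16.1, 29.6 and 30.45 times as high as GPT in Era and 13, 11.5 and 13.1 times as high in Era+VK, and these ranges do not overlap.

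**Figure D2:**
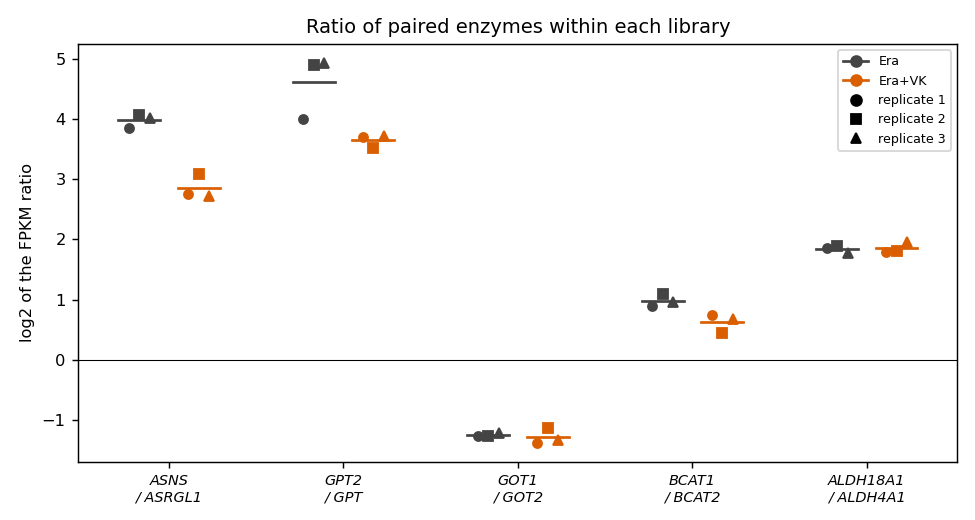
Ratio of FPKM of paired enzymes within each library, as log2 (y axis), for Era and Era+VK; symbols mark the replicate and short lines the group means. The ratios of ASNS and BCAT1 to their partners lie lower in all 3 Era+VK libraries, with log2 differences of -1.12 and -0.36, while those of GOT1 and ALDH18A1 overlap and that of GPT2, also lower, rests on GPT values under 1 FPKM.

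Genes of neighbouring steps in the same pathways were, with 1 exception, not called. Over 6 lists of such genes, 57 symbols in all, 52 are in the files and 43 passed the minimum of 1 FPKM. In limma, 1 of the 43 was called lower, 0 higher and 42 were not called (at an unadjusted p under 0.05, 3 lower and 6 higher). Of all genes tested, 0.618% were called in either direction and 15.8% had an unadjusted p under 0.05. The 1 gene was PSAT1, a transaminase of serine synthesis that also uses glutamate, at 168.74, 163.18 and 163.80 FPKM in Era and 69.91, 90.40 and 98.09 FPKM in Era+VK. In limma it had a log2 fold change of -0.95 with an adjusted p of 0.0196, the size of that of ASNS. The median log2 fold change of the 43 genes was 0.02.

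Among proline and ornithine genes, limma called 0 of 6 tested (1 lower and 1 higher at an unadjusted p under 0.05). Of all genes tested, 0.618% were called and 15.8% had an unadjusted p under 0.05. A count of 0 called therefore does not set a list this short apart. PYCR3, another pyrroline-5-carboxylate reductase gene, averaged 3.45 FPKM without VK1 and 3.32 FPKM with it (log2 fold change -0.04, limma adjusted p = 0.785). PRODH, which starts proline breakdown, was at 0.03 FPKM or less in every library. ALDH4A1 had a log2 fold change of 0.07 (adjusted p = 0.533).

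Limma called 0 of 6 genes of aspartate and asparagine handling and the malate-aspartate shuttle (0 lower and 1 higher at an unadjusted p under 0.05). The shares over all genes were 0.618% called and 15.8% at an unadjusted p under 0.05. ASRGL1 averaged 2.49 FPKM without VK1 and 2.73 FPKM with it (log2 fold change 0.10, limma adjusted p = 0.467). The shuttle partners of GOT1 and GOT2, MDH1, MDH2, SLC25A11, SLC25A12 and SLC25A13, had log2 fold changes between -0.04 and 0.12. Of 7 genes of glutamate and glutamine supply, limma called 0 (1 lower and 2 higher at an unadjusted p under 0.05). They included glutamine synthetase (GLUL), at 9.91 and 11.5 FPKM on average in Era and Era+VK (log2 fold change 0.20, limma adjusted p = 0.129).

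Genes downstream of BCAT1 and BCAT2 in branched-chain amino acid breakdown were not called in limma either (0 of 11, with 0 lower and 2 higher at an unadjusted p under 0.05). Over all genes tested, 0.618% were called and 15.8% had an unadjusted p under 0.05. The subunits BCKDHA and BCKDHB of the dehydrogenase that follows had log2 fold changes of -0.03 and 0.03. Of the list of glutamine amidotransferases and the related synthetase CPS1, which uses free ammonia, limma called 0 of 9 (0 lower and 0 higher at an unadjusted p under 0.05), with a median log2 fold change of -0.01. On the list of other aminotransferases, the genes tested besides PSAT1 were AADAT, KYAT1 and KYAT3, and they were not called either. GPT, ABAT and TAT stayed under 1 FPKM in every library.

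**Figure D3:**
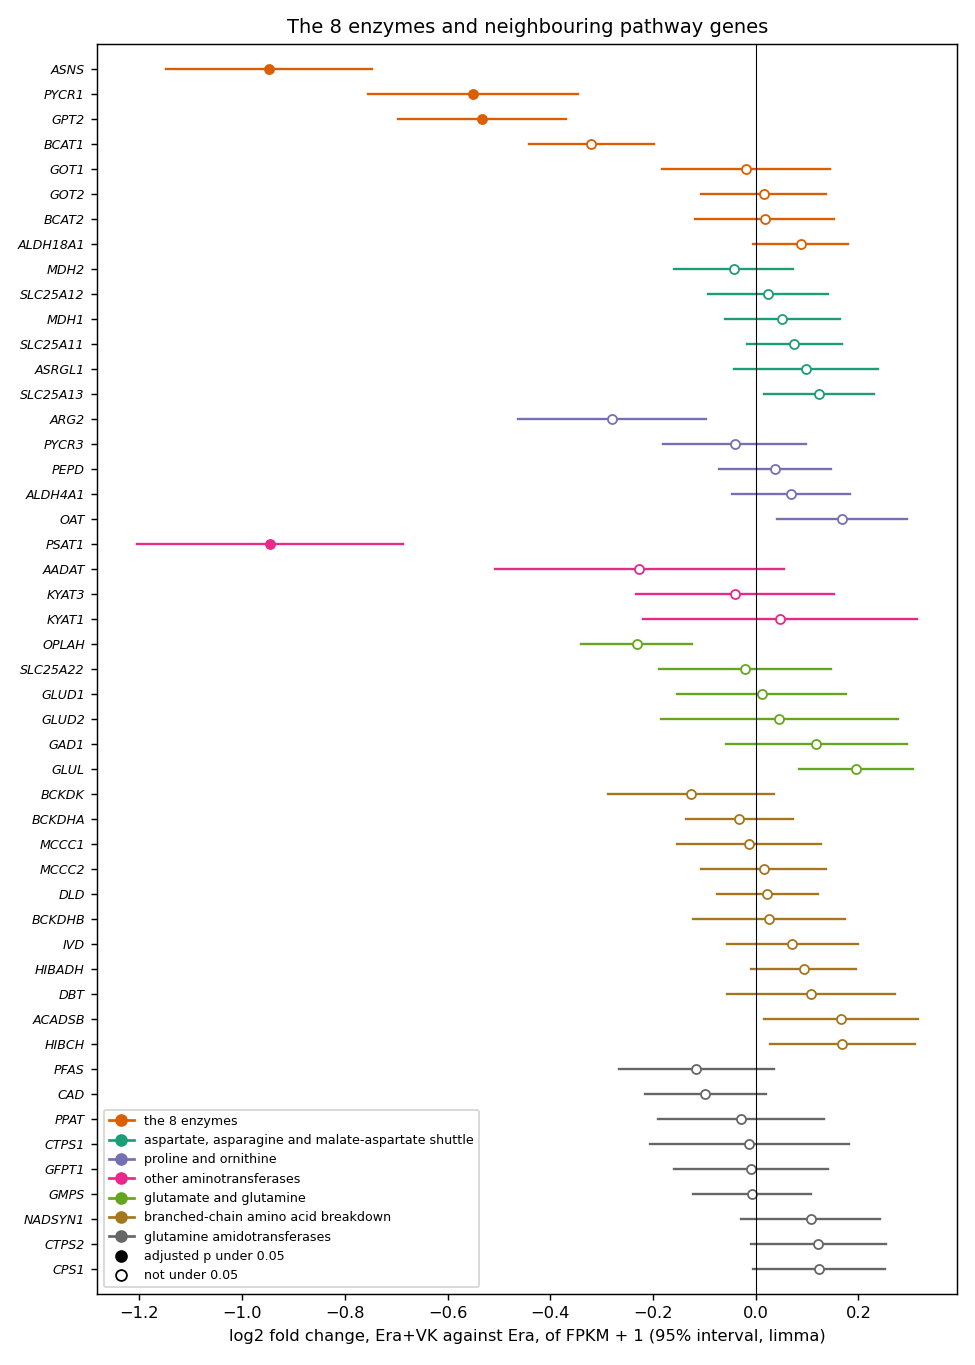
Log2 fold change of Era+VK against Era on the FPKM + 1 scale (x axis) with its 95% interval in limma, for the 8 enzymes and tested genes of 6 neighbouring lists, coloured by list; filled points have an adjusted p under 0.05. ASNS, PYCR1 and GPT2 of the 8 and PSAT1 of the others are filled, all to the left of 0.

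The transcription factor ATF4 fell in the same libraries, from 139.5 ± 5.76 to 95.1 ± 5.99 FPKM (SD over 3 libraries), with a log2 fold change of -0.55 and an adjusted p of 0.0128 in limma. This call too was lost without any 1 Era library (adjusted p = 0.0645, 0.102 and 0.0738 in limma) and with no filter on low values (0.0877). Against the mean of Era on the log2(FPKM + 1) scale, ATF4 lay at -0.66, -0.49 and -0.50 in Era+VK replicates 1, 2 and 3. In the same order, ASNS lay at -1.04, -0.74 and -1.07, PYCR1 at -0.76, -0.51 and -0.39, GPT2 at -0.57, -0.60 and -0.43, and BCAT1 at -0.24, -0.39 and -0.32. Among the Era+VK libraries, the lowest was replicate 1 for PYCR1 and ATF4, replicate 3 for ASNS, and replicate 2 for GPT2 and BCAT1. In replicate 3 the transcript that spans ASNS (ENSG00000284707) was at its highest, 7.70 FPKM. Whether a split of reads between the 2 affects the order for ASNS was not tested. For ASNS and GPT2, replicate 1 lay close to the lowest. Whether the enzymes follow ATF4 from library to library was not tested. ALDH18A1, though counted among ATF4 targets, lay at 0.07, 0.07 and 0.12. Replicate 1, the Era+VK library with erythroid markers at 0.14 FPKM in sum, was below every Era library for ASNS, PYCR1, GPT2 and BCAT1.

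**Figure D4:**
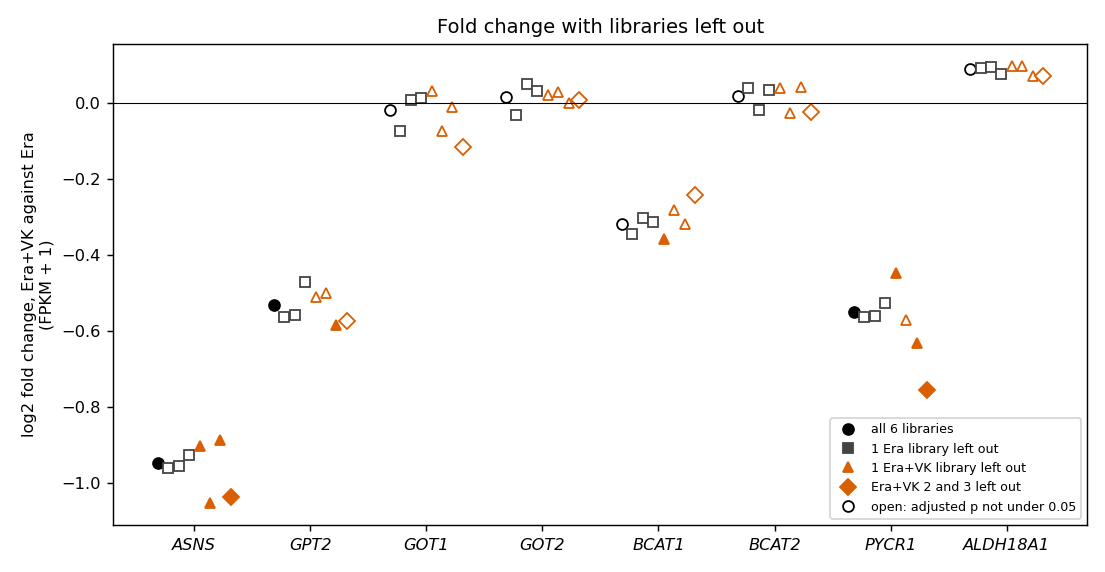
Log2 fold change of Era+VK against Era on the FPKM + 1 scale (y axis) for each of the 8 enzymes, with all 6 libraries, with each library left out in turn, and without both libraries that hold globin transcripts; open points have an adjusted p of at least 0.05 in limma. ASNS, PYCR1, GPT2 and BCAT1 stay below 0 and ALDH18A1 above it throughout, while with 1 Era library left out every point is open.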

How the data were processed

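Gene-level FPKM were computed and deposited by the authors, with 2 decimals and 1 table per library, none pooled, from paired-end Illumina reads. The submitters' processing notes name cutadapt, HISAT2 and StringTie 2.1.6 without settings, and mm10 as the build, although the gene identifiers are those of human genes, so the build used for the reads is uncertain. Gene positions are from GENCODE 29 on GRCh38, matched by identifier. The cell line labels count upwards from ARPE-19, while the titles name ARPE-19 throughout. FPKM carry no depth: in 1175 to 1232 genes with 1 transcript per library, whole reads could not be recovered from low values (index 0.056 to 0.101 on a scale where 1 means whole reads), so no count model was run.

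The 11981 genes whose mean over the 6 libraries reached 1 FPKM entered limma 3.58.1 (trend, R 4.3.3) as log2(FPKM + 1), which understates the change of low genes, with Benjamini-Hochberg adjustment over all of them and a threshold of 0.05. The groups have 3 libraries each. The 8 genes, the lists, the ratios and the motif were chosen with earlier results of these data known. Named are the 8 genes, ATF4, list genes with an adjusted p under 0.05, the partners in the ratios, and the 5 genes most like ASNS; other list genes were named as examples after their values were seen. Most list genes are described by counts alone, and 1 of the ratios enters the adjustment but is not reported here. Alternatives were a pseudocount of 0.1, no filter, 1 FPKM in every library, quantile normalization, rescaling without mitochondrially encoded genes, the replicate number as a block, and libraries left out.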

Additional observations from a re-analysis of the deposited data

How the results depend on the processing

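Over all genes, limma called 74 in all 6 libraries and 1 with no filter (2756 at an unadjusted p under 0.05). It called 122 with at least 1 FPKM in every library, 112 after quantile normalization and 42 with the replicate block. Without Era replicate 1, 2 or 3 it called 3, 2 and 5 genes. Without Era+VK replicate 1, 2 or 3 it called 71, 60 and 42. Of the 8 enzymes, limma called 3 in the main setting, 0 with no filter (5 at an unadjusted p under 0.05), and 0 to 3 with 1 library left out: 0 without any 1 Era library (4 at an unadjusted p under 0.05 each time), 1 without Era+VK replicate 2 and 3 without Era+VK replicate 1 or 3. It called 4 with at least 1 FPKM in every library and after quantile normalization, which split the genes called into 16 higher and 96 lower against 16 and 58. The replicate numbers gave correlations of deviations of 0.07, 0.10 and 0.02 between libraries of the same number. Between libraries of different numbers they ran from -0.114 to 0.04. For each Era+VK library the Era library of the same number gave the highest value. All are small and the labels name no pairing, so the numbers were not taken as pairs. With the replicate block, limma called 2 of the 8, PYCR1 having an adjusted p of 0.0532. The mean ratios are the same by construction.

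ASNS, GPT2, PYCR1 and BCAT1 were lower in Era+VK, and ALDH18A1 higher, under every alternative run. The small values changed sign. With 1 library left out, GOT1 ran from -0.0757 to 0.0301 (above 0 without Era replicate 2 or 3 or Era+VK replicate 1), GOT2 from -0.0324 to 0.0488 (below 0 without Era replicate 1 or Era+VK replicate 3) and BCAT2 from -0.028 to 0.0415 (below 0 without Era or Era+VK replicate 2). BCAT2 was at -0.0222 after quantile normalization and -0.0249 without Era+VK replicates 2 and 3. The log2 difference of the GOT1/GOT2 ratio (-0.0363) ran from -0.1104 to 0.0117 with 1 library left out and was -0.1324 without Era+VK replicates 2 and 3. That of ALDH18A1/ALDH4A1 (0.0119) ran from -0.0437 to 0.0424 and was -0.0492. The causes were not tested.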

Other observations

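The 5 tested genes whose levels followed ASNS most closely over the 6 libraries, by Pearson correlation of log2(FPKM + 1), were SLC22A3, an organic cation transporter (0.997), MAPKAPK3, a stress-activated kinase (0.992), PLS3, an actin-bundling protein (0.991), RHOA, a small GTPase (0.990), and DKK1, a secreted Wnt inhibitor (0.989). The 6 libraries are 2 groups of 3, so these values hold the difference between the groups and are given as a description of likeness. The size of the difference varied widely among them: SLC22A3 fell from 2.70 to 1.71 FPKM on average (log2 fold change -0.45, adjusted p = 0.0296 in limma), while MAPKAPK3 was at 26.3 and 24.03 FPKM (-0.13, adjusted p = 0.198 in limma), PLS3 at 86.9 and 79.0 FPKM, RHOA at 145.3 and 128.8 FPKM, and DKK1 at 90.4 and 75.0 FPKM. None of the other 7 enzymes was among the 5.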
